A study of Mus musculus with 4 samples.

Results

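Transcripts of 40 genes of mitosis and the spindle were followed in cultured mouse keratinocytes, the epithelial cells of the epidermis. The genes were taken as a list of textbook mitosis genes, by their symbols in the platform annotation, and each was read by its probe set with the highest mean. Of the 40 genes, 37 were matched to a probe set and 36 were measured, out of 7461 measured genes in all. The level filter kept genes with at least 1 array at or above 20.04 intensity units, the median of the table. Ccnb1, Cdca8 and Espl1 were not matched and were not analysed here. Cenpe, a kinesin-like motor of the kinetochore, had intensities of 3.98 in CKO 4OHT, 4.28 in CKO EtOH, 3.70 in control 4OHT and 5.93 in control EtOH, under that level.

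The cells were primary keratinocytes from the tail skin of C57BL/6 mice with a floxed Prdm1 gene, and every group carried that floxed gene. Prdm1 encodes the transcriptional repressor Blimp-1. CKO cells also had CreER, a Cre recombinase that acts in the nucleus once 4-hydroxytamoxifen (4OHT) is bound, and control cells had no CreER. The labels give neither the promoter that drives CreER nor the age of the mice. The 4 groups were CKO cells with 4OHT, CKO cells with its solvent ethanol (EtOH), control cells with 4OHT and control cells with EtOH. Drug or solvent was present from day 1 to day 3, and the cells were collected on day 5. Each group had 1 array, a 3′-biased Affymetrix expression array, so there was no estimate of error, no difference could be tested, and the small number of arrays limits every value below. CKO and control cells came from different mice, so a difference between genotypes cannot be told apart from a difference between animals. Without replicates, a difference between drug and solvent likewise cannot be told apart from a difference between cultures.

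Levels are given as RMA intensities on a linear scale, and differences as log2 differences. RMA corrects the background of each array and brings the arrays to a common distribution. The array medians lay between 19.95 and 20.22 intensity units. Prdm1 had an intensity of 6.43 in CKO 4OHT, 17.0 in CKO EtOH, 52.4 in control 4OHT and 20.7 in control EtOH, with CKO 4OHT lowest and control 4OHT highest. The keratins Krt14 and Krt5 of basal keratinocytes were bright on all 4 arrays, at 6437 to 6663 and 3298 to 3774. Of the matched markers of other cell types, 1 of 8 for fibroblasts, 5 of 8 for melanocytes, 2 of 11 for leukocytes and 0 of 7 for endothelium were measured. Of the melanocyte markers, 4 of 5 were higher in CKO 4OHT than in CKO EtOH (median log2 difference 0.32). So were 3825 of all 7461 measured genes. All 5 were above 0 in the drug effect in CKO cells minus that in control cells (median 0.38). This held for 4084 of all 7461 measured genes. None of the 5 melanocyte markers reached 1.5-fold in a comparison. Their summed intensities were 216, 205, 190.2 and 206 in CKO 4OHT, CKO EtOH, control 4OHT and control EtOH. Their part in the differences below was not tested. With RNA from whole cultures, fewer dividing cells and less of a transcript per dividing cell cannot be told apart.

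Mitosis is driven by the kinase Cdk1 with its A-type and B-type cyclins. In cycling cells, transcripts of the B-type cyclins accumulate in G2 phase and peak in mitosis. Kinesins and microtubule-binding proteins build the spindle, kinetochores attach chromosomes to it, and the spindle assembly checkpoint holds the anaphase-promoting complex back until attachment is complete. In the epidermis, dividing cells lie mainly in the basal layer, and keratinocytes leave the cell cycle as they differentiate. Many of these genes are repressed together in resting cells by the DREAM complex and activated late in the cycle by B-Myb and FoxM1, through CCAAT boxes and the CHR element (cell cycle genes homology region) near the start of the gene.

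Most of the 36 measured genes were lowest on the same array and highest on the same array. CKO 4OHT was the lowest array for 27 of them (75% of the members, against 31.1% of all measured genes), and control EtOH was the highest for 31 (86.1%, against 29.4% of all measured genes). The lowest array was control 4OHT for 8 members (30.8% of all measured genes), CKO EtOH for 1 (17.6%) and control EtOH for 0 (20.6%). The highest was CKO 4OHT for 1 member (31.6% of all measured genes), CKO EtOH for 2 (15.1%) and control 4OHT for 2 (23.9%). CKO 4OHT lowest and control EtOH highest both held for 23 members, 63.9%, against 12.8% of all measured genes. For 6 members, Mki67, Ccnb2, Cenpf, Ccna2, Cdca3 and Bub1b, the CKO 4OHT value lay at least 1.5-fold below the next array, 16.7% of the members against 3.19% of all measured genes. No member lay that far below the other arrays in CKO EtOH, control 4OHT or control EtOH, where 0.0134%, 0.241% and 0.174% of all measured genes did. The differences were small: the largest spread of a member over the 4 arrays was 1.16 on the log2 scale.

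**Figure D1:**
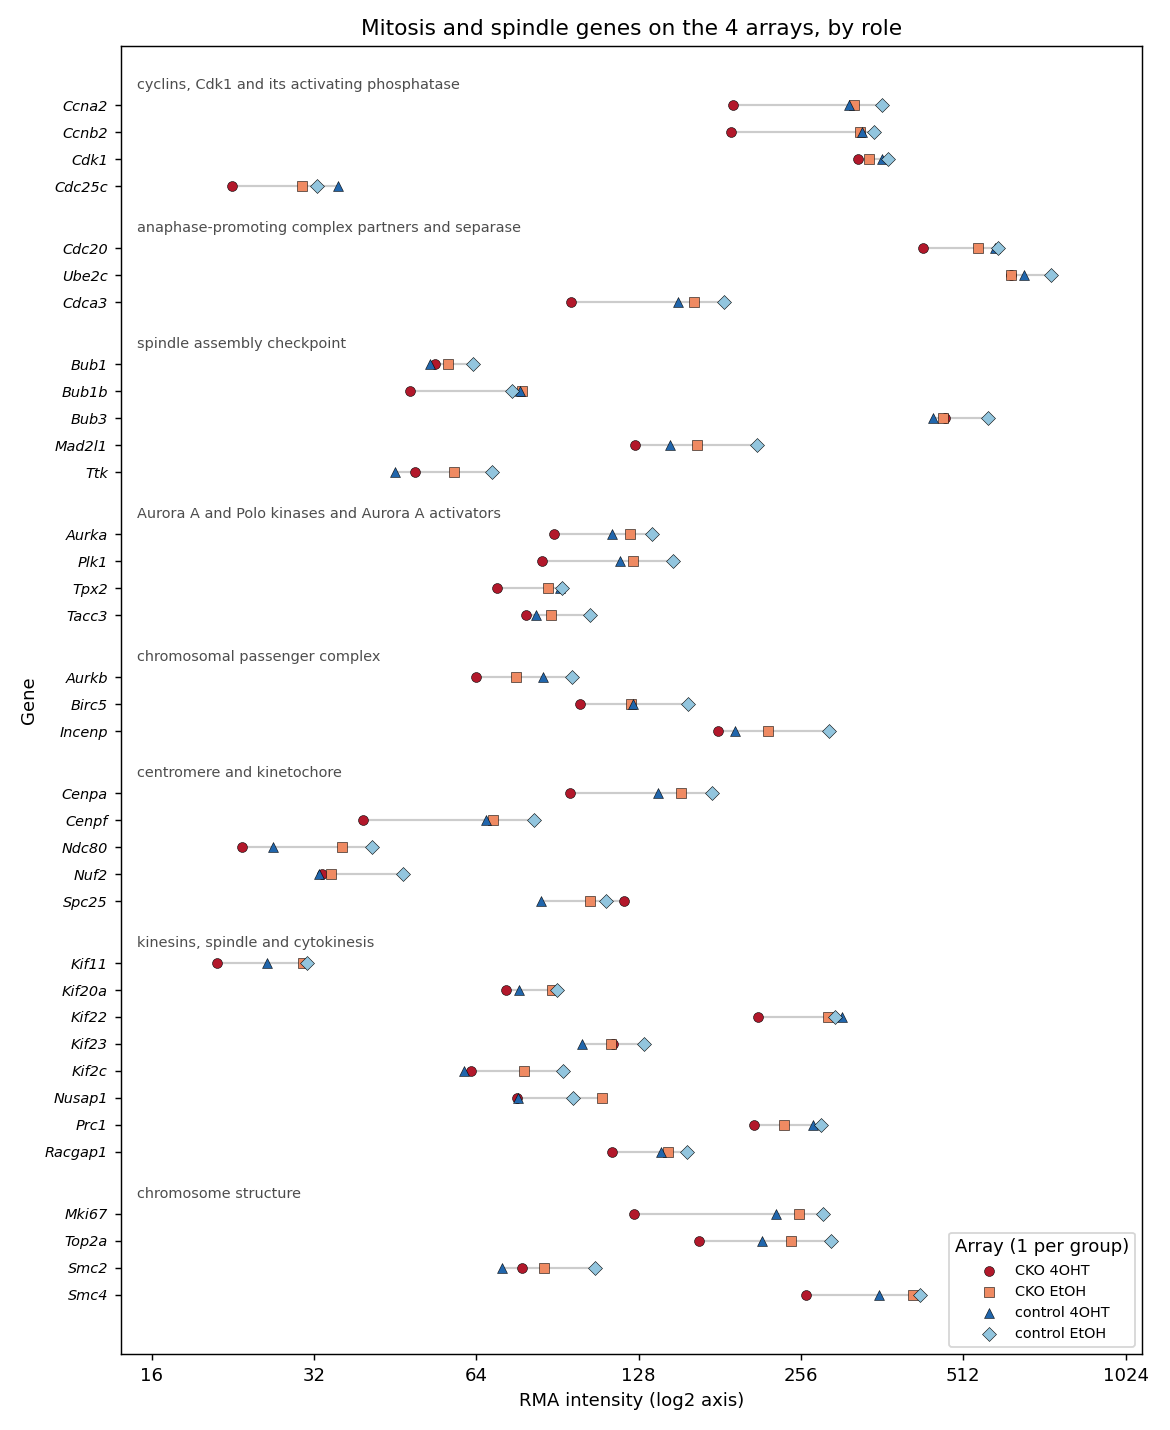
RMA intensity of the 36 measured mitosis and spindle genes on a log2 axis, grouped by role, with 1 point per array (1 array per group, so no error bars) and a grey line from the lowest to the highest array. CKO 4OHT is the lowest array for 27 genes and control EtOH the highest for 31. Levels of different genes are not comparable, because they come from different probes.

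All 4 measured genes of the cyclin and Cdk1 group were lowest in CKO 4OHT, and 3 of them were highest in control EtOH. Ccnb2, a B-type cyclin, had 189.7 in CKO 4OHT, 329.5 in CKO EtOH, 333 in control 4OHT and 350.3 in control EtOH. The other 3 arrays were close to each other and CKO 4OHT stood below them, by 0.80 from the nearest. Ccna2, the A-type cyclin of S and G2 phase, had 192 in CKO 4OHT, 321 in CKO EtOH, 315 in control 4OHT and 361 in control EtOH, a gap of 0.71 below the nearest array. A second Ccna2 probe set gave 167, 253, 252 and 267 on the same arrays in the same order. Cdc25c, the phosphatase that activates Cdk1 at mitotic entry, was dimmer, at 22.5 in CKO 4OHT, 30.4 in CKO EtOH, 35.5 in control 4OHT and 32.4 in control EtOH. Cdk1 itself, the catalytic partner of these cyclins, hardly differed: it had 326 in CKO 4OHT, 343 in CKO EtOH, 362 in control 4OHT and 371 in control EtOH. The transcripts of the cyclin partners and of the kinase thus differed by unequal amounts on the same arrays.

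Genes around the anaphase-promoting complex, the ubiquitin ligase that ends mitosis, were unequal as well. Cdca3, known as a trigger of mitotic entry that is itself degraded through this ligase, had 96.0 in CKO 4OHT, 162 in CKO EtOH, 151 in control 4OHT and 184 in control EtOH, lowest by 0.66. Cdc20, the activator of the ligase in mitosis, had 431 in CKO 4OHT, 546 in CKO EtOH, 587 in control 4OHT and 593 in control EtOH, and its 2 further probe sets were also lowest in CKO 4OHT. Ube2c, its ubiquitin-conjugating enzyme, had 627 on both CKO arrays, 665 in control 4OHT and 745 in control EtOH. For Ube2c the CKO arrays were alike and below both control arrays.

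In the spindle assembly checkpoint, 1 of 5 genes had CKO 4OHT at least 1.5-fold below the other arrays. Bub1b, the checkpoint kinase-like protein BubR1, had 48.1 in CKO 4OHT, 77.8 in CKO EtOH, 77.2 in control 4OHT and 74.3 in control EtOH, with the other 3 arrays nearly level. Mad2l1, which binds and restrains Cdc20, had 126 in CKO 4OHT, 164 in CKO EtOH, 146 in control 4OHT and 212 in control EtOH. Ttk, the kinase Mps1 at the head of the checkpoint, had 49.2 in CKO 4OHT, 58.1 in CKO EtOH, 45.1 in control 4OHT and 68.5 in control EtOH. Ttk was thus lower on both drug arrays than on both solvent arrays, whatever the genotype, and lowest in control 4OHT. Bub1 and Bub3, which recruit the checkpoint to kinetochores, were also lowest in control 4OHT, at 52.5 and 450.1 against 53.5 and 473 in CKO 4OHT. A further measured Bub3 probe set was lowest in CKO EtOH instead. It had 44.5 in CKO 4OHT, 39.7 in CKO EtOH, 41.4 in control 4OHT and 48.1 in control EtOH.

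The mitotic kinases and their partners were lowest in CKO 4OHT for all 7 members of both groups. Plk1, the Polo kinase of mitotic entry and spindle poles, had 84.6 in CKO 4OHT, 125 in CKO EtOH, 118 in control 4OHT and 148 in control EtOH. Aurka, the Aurora kinase of the spindle poles, had 89.0 in CKO 4OHT, 123 in CKO EtOH, 114 in control 4OHT and 135 in control EtOH. Its activator Tpx2 differed by -0.31 and its partner Tacc3 by -0.16 between CKO 4OHT and CKO EtOH. In the chromosomal passenger complex, which corrects attachments at the centromere, Birc5 (survivin) had 99.5 in CKO 4OHT, 124 in CKO EtOH, 125 in control 4OHT and 158 in control EtOH. Its kinase Aurkb and scaffold Incenp had the same lowest and highest arrays, with 63.8 and 179.9 in CKO 4OHT and 96.3 and 288 in control EtOH. A further Aurkb probe set was lowest in control 4OHT instead, at 36.1 in CKO 4OHT, 39.6 in CKO EtOH, 32.3 in control 4OHT and 41.3 in control EtOH.

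Kinetochore genes had different orders of the arrays. Cenpf, a large outer kinetochore protein of G2 and mitosis, had 39.4 in CKO 4OHT, 68.7 in CKO EtOH, 66.5 in control 4OHT and 81.8 in control EtOH, a gap of 0.76. Cenpa, the histone H3 variant of centromeres, had 95.5 in CKO 4OHT, 153 in CKO EtOH, 139 in control 4OHT and 175 in control EtOH. Of the subunits of the Ndc80 complex, which grips microtubules, Ndc80 had the order of Cenpf and Cenpa and the others had not. Ndc80 had 23.5 in CKO 4OHT, 36.0 in CKO EtOH, 26.8 in control 4OHT and 41.0 in control EtOH. Nuf2 had 33.0 in CKO 4OHT, 34.4 in CKO EtOH, 32.6 in control 4OHT and 46.7 in control EtOH, so control EtOH stood above 3 level arrays. Spc25 ran the other way, with 120.2 in CKO 4OHT, 104 in CKO EtOH, 84.2 in control 4OHT and 111 in control EtOH, and it was the single member that was highest in CKO 4OHT.

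Among kinesins and genes of spindle and cytokinesis, 6 of 8 were lowest in CKO 4OHT, with none at least 1.5-fold lower against either comparator. Kif22, the chromokinesin Kid, had 213 in CKO 4OHT, 287 in CKO EtOH, 306 in control 4OHT and 296 in control EtOH. Kif11, the motor Eg5 that separates the spindle poles, had 21.1 in CKO 4OHT, 30.6 in CKO EtOH, 26.2 in control 4OHT and 31.1 in control EtOH, near the level filter. Kif20a, a motor of cytokinesis, had 72.6 in CKO 4OHT, 88.5 in CKO EtOH, 76.9 in control 4OHT and 90.2 in control EtOH. Prc1, which bundles microtubules of the midzone, and Racgap1 of the centralspindlin complex had 209 and 114 in CKO 4OHT and 279 and 157 in control EtOH. Kif23, the motor partner of Racgap1, was not lower in CKO 4OHT than in CKO EtOH, at 115 and 114, and had 100.3 in control 4OHT and 131 in control EtOH. Nusap1, a microtubule-stabilising protein, had 76.2 in CKO 4OHT, 109 in CKO EtOH, 76.5 in control 4OHT and 96.6 in control EtOH.

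Chromosome structure genes included the largest difference. Mki67, which coats mitotic chromosomes and gives the Ki-67 proliferation marker, had 126 in CKO 4OHT, 254 in CKO EtOH, 229.6 in control 4OHT and 281 in control EtOH. Top2a, the topoisomerase that disentangles sister chromatids, had 166 in CKO 4OHT, 245 in CKO EtOH, 217 in control 4OHT and 291 in control EtOH. Smc4 and Smc2 form the core of condensin. Smc4 had 261 in CKO 4OHT, 413 in CKO EtOH, 357 in control 4OHT and 426 in control EtOH, whereas Smc2 had 77.9, 85.2, 71.4 and 106 on those arrays and was lowest in control 4OHT. These condensin partners therefore differed in which array was lowest.

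CKO 4OHT was first set against CKO EtOH. In cells with CreER this comparison holds any effect of the drug and of Cre, and any difference between the cultures. Of the 36 members, 32 were lower in CKO 4OHT (88.9%, against 48.6% of all measured genes) and the median log2 difference was -0.34, against 0.01 over all measured genes. A difference of at least 2-fold was reached by Mki67 alone (-1.02), 2.78% of the members where 1.86% of all measured genes were that much lower, a share near the background. No member was 2-fold higher (1.78% of all). At least 1.5-fold lower were 9 members (25% of them, against 5.47% of all measured genes) and 0 were that much higher (5.67% of all). After Mki67 these were Cenpf (-0.80), Ccnb2 (-0.80), Cdca3 (-0.76), Ccna2 (-0.74), Bub1b (-0.69), Cenpa (-0.68), Smc4 (-0.66) and Ndc80 (-0.62). Each of them also lay under the 5th percentile of all measured genes, -0.61. The members not lower were Spc25 (0.21), Bub3 (0.01), Kif23 (0.01) and Ube2c (0.00).

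Setting CKO 4OHT against control 4OHT had the drug on both sides, and reused the CKO 4OHT array. Here 28 members were lower (77.8%, against 47.8% of all measured genes), with a median of -0.32 against 0.01. No member reached 2-fold, where 2.24% of all measured genes were that much lower and 1.45% that much higher. At least 1.5-fold lower were 7 members (19.4%, against 6.04% of all measured genes) and 0 were that much higher (6.65% of all): Mki67 (-0.87), Ccnb2 (-0.81), Cenpf (-0.76), Ccna2 (-0.71), Bub1b (-0.68), Cdca3 (-0.66) and Cdc25c (-0.66). By role, the 4 measured genes of the cyclin group had a median of -0.69 and the 5 checkpoint genes a median of 0.03. Spc25 (0.51), Kif23 (0.19), Smc2 (0.13) and Ttk (0.12) were higher in CKO 4OHT here.

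In cells lacking CreER, control 4OHT was set against control EtOH, which holds any effect of the drug without Cre and any difference between the cultures. The members were lower there too: 33 of 36 lay below 0 (91.7%, against 56.6% of all measured genes), with a median of -0.29 against -0.04. With the mean of all probe sets of a gene, the median of the members was -0.16. None reached 2-fold (0.241% of all measured genes lower, 1.27% higher). Those at least 1.5-fold lower were Ndc80 (-0.61), Kif2c (-0.61) and Ttk (-0.60), of which Kif2c had 0.02 and 0.29 by its other measured probe sets. They were 8.33% of the members against 3.91% of all measured genes, with 0 that much higher (3.95% of all). Next came Incenp (-0.58), Smc2 (-0.58), Mad2l1 (-0.53) and Nuf2 (-0.52), of which Incenp had -0.28 and 0.53 by its other measured probe sets. Of the genes at least 1.5-fold lower here, Ndc80 was also among the 9 lower genes of the CKO comparison. Ccnb2 differed by -0.07, Cdk1 by -0.03, Tpx2 by -0.01 and Cdc20 by -0.02. Cdc25c (0.13), Bub1b (0.05) and Kif22 (0.05) were the members above 0, of which Kif22 had -0.15 and -0.25 by its other measured probe sets.

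The solvent cultures, which by the labels had no inducer, also differed. Between CKO EtOH and control EtOH, 34 of 36 members lay below 0 (94.4%, against 56.2% of all measured genes), with a median of -0.19 against -0.03. No member reached 1.5-fold, as did 0.751% of all measured genes downward and 0.59% upward, and 2-fold was reached by 0% downward and 0.0536% upward. The lowest were Nuf2 (-0.44), Incenp (-0.37), Mad2l1 (-0.37), Birc5 (-0.35) and Aurkb (-0.35), and Nusap1 (0.18) and Bub1b (0.07) were above 0. By their other measured probe sets, Incenp had 0.13 and 0.32 and Aurkb had -0.06. With the mean of all probe sets of a gene, 28 of 34 members lay below 0, with a median of -0.11. A shared downward sign of most members was therefore also seen between a pair of arrays without 4OHT, at a smaller size. Its part in the other comparisons was not tested.

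The difference of the drug effects subtracts the drug effect in control cells from that in CKO cells, and uses all 4 arrays. A drug effect here is the 4OHT array against the EtOH array of a genotype, with any difference between cultures in it. Over the members its median was -0.14, against 0.04 over all measured genes, with 23 of 36 below 0 (63.9%, against 45.3% of all). None reached 2-fold (2.9% of all measured genes downward, 2.75% upward). Bub1b (-0.75), Ccnb2 (-0.72) and Mki67 (-0.72) were at least 1.5-fold lower, 8.33% of the members against 8.51% of all measured genes, a share near the background. Spc25 (0.62) was the 1 member at least 1.5-fold higher (2.78%, against 11.1% of all). No member lay outside the 5th to 95th percentile of all measured genes, -0.77 to 0.84.

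**Figure D2:**
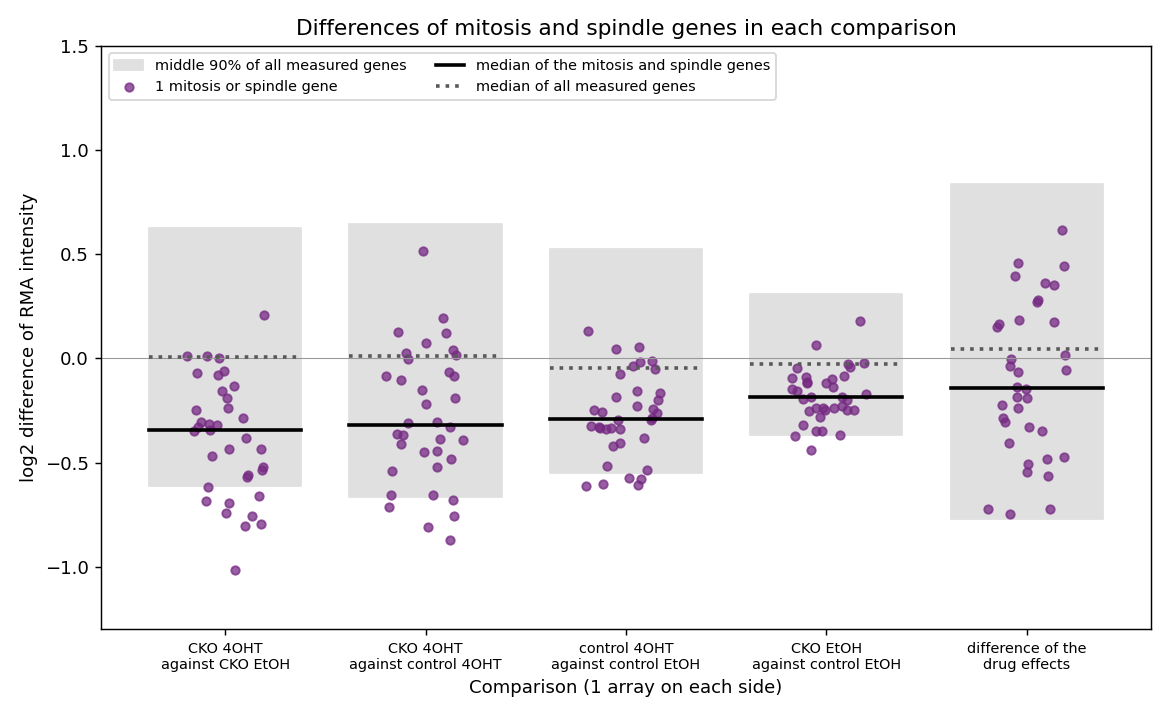
Log2 difference of RMA intensity in each comparison, with 1 point per measured mitosis or spindle gene (36), the median of these genes as a solid line, the median of all 7461 measured genes as a dotted line and the middle 90% of all measured genes as a grey band. The medians of the members lie at -0.34, -0.32, -0.29, -0.19 and -0.14 from left to right, and the points under the band in the leftmost comparison number 9. Neighbouring columns share arrays and are not independent.

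Several members had further probe sets, which read other stretches of the same transcripts. There were 18 measured further probe sets for 12 members, and 16 of them were lower in CKO 4OHT than in CKO EtOH, with 15 lowest in CKO 4OHT of all arrays. Of the 18, 6 were at least 1.5-fold lower than in CKO EtOH, where 5.47% of all measured genes were by their main probe set. Racgap1 differed more by its second probe set, with 27.7 in CKO 4OHT, 62.7 in CKO EtOH, 49.6 in control 4OHT and 59.2 in control EtOH, a difference of -1.18 from CKO EtOH against -0.35 by the main one. Kif22 had a further probe set at 34.1 in CKO 4OHT, 62.9 in CKO EtOH, 58.5 in control 4OHT and 64.7 in control EtOH. Kif2c, a microtubule-depolymerising kinesin, depended on the probe set. Its main one, of a kind whose design allows cross-hybridisation, had 62.5 in CKO 4OHT, 78.5 in CKO EtOH, 60.7 in control 4OHT and 92.6 in control EtOH, while another had 24.1, 40.4, 44.4 and 36.4. For Kif2c, the lower value in control 4OHT than in control EtOH was therefore not shared by its other probe sets. Incenp had further probe sets of both kinds. One had 51.4 in CKO 4OHT, 68.9 in CKO EtOH, 51.9 in control 4OHT and 62.9 in control EtOH, with CKO 4OHT lowest as by the main one. A dimmer one had 27.8 in CKO 4OHT, 24.9 in CKO EtOH, 28.8 in control 4OHT and 19.9 in control EtOH, with control EtOH lowest. In all, 6 of the 36 members were represented by a probe set of that kind, Aurkb, Bub3, Incenp, Kif22, Kif2c and Prc1.

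Promoter sequences were examined because many members shared an order of the arrays. RefSeq promoter windows (GRCm38.p6), each of 250 bases before and 50 bases after a gene start, were matched for 29 of the 36 members, with 31 windows in all. The motifs searched were CCAAT, the letters of the NF-Y box, and TTTGAA and TTTAAA, the letters of the CHR, on both strands. TTTAAA is its own reverse complement, and no match of 1 of the 3 motifs is at the same time a match of another. TTTGAA was found in 25 of 31 member windows (80.6%), against 11.5% of 7883 windows of measured genes and 17.9% of all 32851 windows. CCAAT was found in 24 (77.4%), against 37.4% of windows of measured genes, and TTTAAA in 7 (22.6%), against 8.68%. A CCAAT together with a CHR sequence was present in 23 member windows (74.2%), against 7.24% of windows of measured genes. Among the windows of members at least 1.5-fold lower in CKO 4OHT than in CKO EtOH, 7 of 7 held TTTGAA and 6 of 7 held CCAAT, and among the other windows 18 of 24 held each. A match is a description of the letters and shows no binding.

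The windows below show 150 bases before and 30 bases after the start of 3 genes that were lowest in CKO 4OHT by a clear gap (Mki67, Ccnb2 and Cenpf) and of 2 that hardly differed from CKO EtOH (Cdk1 and Ube2c). They are written 5′ to 3′ on the strand of the gene, with CCAAT (or ATTGG on the other strand) and TTTGAA (or TTCAAA on the other strand) in capitals. Mki67 lies at chr7:135716350-135716529, Ccnb2 at chr9:70421525-70421704, Cenpf at chr1:189688057-189688236 and Cdk1 at chr10:69352883-69353062, all on the minus strand, and Ube2c at chr2:164769779-164769958 on the plus strand.
Mki67: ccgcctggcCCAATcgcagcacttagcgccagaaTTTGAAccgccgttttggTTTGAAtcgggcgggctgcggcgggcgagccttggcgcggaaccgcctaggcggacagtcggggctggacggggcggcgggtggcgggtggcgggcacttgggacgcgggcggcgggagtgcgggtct
Ccnb2: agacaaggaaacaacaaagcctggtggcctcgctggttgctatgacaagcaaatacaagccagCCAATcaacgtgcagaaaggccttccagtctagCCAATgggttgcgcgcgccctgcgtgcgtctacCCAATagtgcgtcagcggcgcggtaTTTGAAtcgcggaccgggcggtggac
Cenpf: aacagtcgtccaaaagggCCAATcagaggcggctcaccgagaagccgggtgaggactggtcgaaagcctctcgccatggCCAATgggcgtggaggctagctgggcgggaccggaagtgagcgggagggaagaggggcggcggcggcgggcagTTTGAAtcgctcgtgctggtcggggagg
Cdk1: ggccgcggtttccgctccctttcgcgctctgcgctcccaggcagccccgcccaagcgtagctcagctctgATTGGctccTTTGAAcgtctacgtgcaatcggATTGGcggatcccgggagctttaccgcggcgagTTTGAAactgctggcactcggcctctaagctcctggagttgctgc
Ube2c: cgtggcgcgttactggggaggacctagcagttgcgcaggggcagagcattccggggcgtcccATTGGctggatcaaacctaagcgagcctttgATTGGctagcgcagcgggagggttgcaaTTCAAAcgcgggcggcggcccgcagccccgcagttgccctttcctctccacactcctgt
Both sets of genes held both kinds of letters. Ccnb2 has 3 CCAAT sequences upstream of 1 TTTGAA, which begins at base 5 after the start, and Cenpf has 2 CCAAT sequences upstream of a TTTGAA at base 3. Cdk1 and Ube2c, whose levels in CKO 4OHT were close to those in CKO EtOH, carry the same sequences in these windows, on the same or the other strand. In Mki67 the pair of TTTGAA sequences lies further upstream, beginning at bases -116 and -98 from the start.

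Other genes of mitosis were counted from a wider list of 76 measured genes. In CKO 4OHT against CKO EtOH 52 of them were lower (68.4%, against 48.6% of all measured genes), with a median of -0.17. At least 1.5-fold lower were 5 (6.58%, against 5.47% of all measured genes). Against control 4OHT their median was -0.07, with 49 lower (64.5%, against 47.8% of all). In control 4OHT against control EtOH, 64 were lower (84.2%, against 56.6% of all), with a median of -0.22. At least 1.5-fold lower there were 9 (11.8%, against 3.91% of all). In CKO EtOH against control EtOH, 65 were lower (85.5%, against 56.2% of all), with a median of -0.14. In the difference of the drug effects their median was 0.07, beside 0.04 over all measured genes and -0.14 for the mitosis and spindle genes. There 32 of the 76 lay below 0 (42.1%, against 45.3% of all). Aspm, a spindle pole protein, had 19.3 in CKO 4OHT, 37.9 in CKO EtOH, 30.7 in control 4OHT and 40.2 in control EtOH. Cdc25b, a phosphatase that activates Cdk1 at the centrosome, had 53.7 in CKO 4OHT, 94.0 in CKO EtOH, 106 in control 4OHT and 109 in control EtOH. Both were named after their values were seen, and both stood lowest in CKO 4OHT as Ccnb2 did. Ncapg2, a condensin II subunit, was the 1 gene of this list past 2-fold in a comparison of arrays, with 45.2 in CKO 4OHT, 46.1 in CKO EtOH, 37.9 in control 4OHT and 78.6 in control EtOH. Ran and Tubb5, a GTPase and a tubulin that non-dividing cells use too, were higher in CKO 4OHT than in CKO EtOH by 0.34 and 0.23. The 15 measured subunits and partners of the anaphase-promoting complex had medians of 0.07 against CKO EtOH and 0.08 against control 4OHT, with none past 1.5-fold.

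Of the 17 measured regulators of these genes, 3 were lowest in CKO 4OHT (17.6%, against 31.1% of all measured genes). Highest in CKO 4OHT were 5 (29.4%, against 31.6% of all). Foxm1 and Mybl2 were among the lowest in CKO 4OHT, but by narrow gaps. Foxm1 had 31.8 in CKO 4OHT, 32.5 in CKO EtOH, 46.0 in control 4OHT and 34.2 in control EtOH. Mybl2, which encodes B-Myb, was dim, at 18.2 in CKO 4OHT, 23.8 in CKO EtOH, 18.9 in control 4OHT and 18.8 in control EtOH. Cdkn1a, the Cdk inhibitor p21, had 1579.7 in CKO 4OHT, 1032 in CKO EtOH, 1037 in control 4OHT and 1168 in control EtOH, highest in CKO 4OHT. The 17 measured genes of this list had medians of 0.05 against CKO EtOH and 0.06 against control 4OHT. Against control 4OHT, 3 of them were at least 1.5-fold higher (17.6%, against 6.65% of all measured genes) and 0 that much lower (6.04% of all). Both Foxm1 and Mybl2 were named after their values were seen.

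Genes of DNA replication mostly shared the highest array with the members, but not the lowest. Of 39 measured replication and S phase genes, 33 were lowest in control 4OHT (84.6%, against 30.8% of all measured genes). CKO 4OHT was lowest for 4 of them (10.3%, against 31.1% of all), and control EtOH was highest for 30 (76.9%, against 29.4% of all). Their median was 0.13 in CKO 4OHT against CKO EtOH and 0.39 against control 4OHT, beside -0.34 and -0.32 for the mitosis and spindle genes. In control 4OHT against control EtOH it was -0.52, beside -0.29. Pcna, the sliding clamp of DNA polymerase, had 1069 in CKO 4OHT, 932 in CKO EtOH, 845 in control 4OHT and 1083 in control EtOH. Mcm7, a subunit of the replicative helicase, had 556 in CKO 4OHT, 496 in CKO EtOH, 380.3 in control 4OHT and 641 in control EtOH. Tk1, thymidine kinase, had 88.9 in CKO 4OHT, 40.7 in CKO EtOH, 37.4 in control 4OHT and 74.2 in control EtOH, and Hells and Pola1 were more than 2-fold lower in control 4OHT than in control EtOH (-1.23 and -1.26). Among the members, control 4OHT was lowest for 8 (22.2%, under the 30.8% of all measured genes). They were Ttk, Smc2, Nuf2, Spc25, Kif23, Bub1, Bub3 and Kif2c, with Bub3 and Kif2c so by their main probe sets alone. Whether the 2 lists differ could not be tested with 1 array per group.

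**Figure D3:**
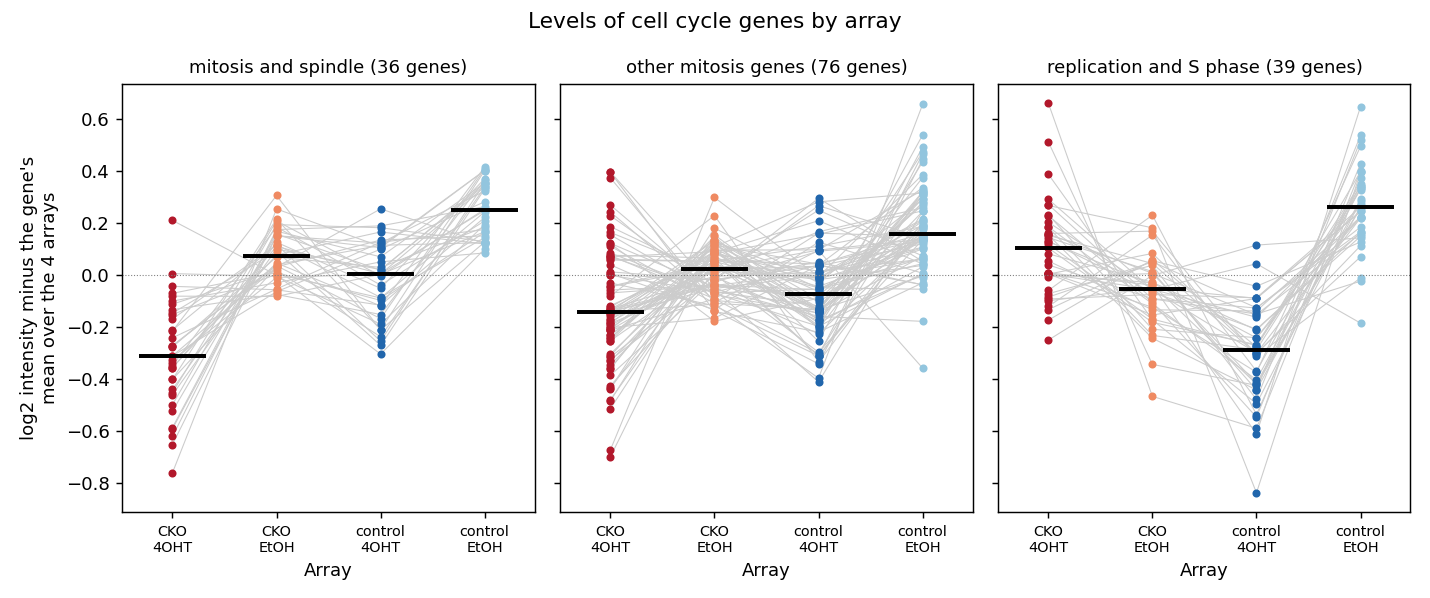
Log2 intensity of each gene minus its own mean over the 4 arrays, for the mitosis and spindle genes (36), other mitosis genes (76) and replication and S phase genes (39), with 1 point per gene and array, grey lines joining a gene's points and black bars at the medians. The median in CKO 4OHT is -0.31 for mitosis and spindle genes, -0.14 for other mitosis genes and 0.10 for replication genes, and the median in control 4OHT is 0.00, -0.07 and -0.29.

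Among genes of G1 phase, a cyclin and an inhibitor differed by more than any member. Ccnd1, cyclin D1 of G1 phase, had 521 in CKO 4OHT, 215 in CKO EtOH and 154 in control 4OHT, with a log2 difference of -0.70 between control 4OHT and control EtOH. Its level in CKO 4OHT was more than 2-fold that in CKO EtOH and in control 4OHT. Cdkn2d, the Cdk4 and Cdk6 inhibitor p19, had 15.8 in CKO 4OHT, 40.9 in CKO EtOH, 45.7 in control 4OHT and 44.3 in control EtOH. Of the 10 measured G1 cyclins, kinases and inhibitors these 2 were past 2-fold between those arrays, and their list had medians of 0.06 and 0.28 against CKO EtOH and control 4OHT.

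Markers of differentiated keratinocytes, which have left the cell cycle, also differed between the arrays. Of 9 measured suprabasal markers all 9 had higher levels in control 4OHT, against control EtOH (median 0.86). So did 3227 of all 7461 measured genes. In CKO EtOH against control EtOH, 0 of 9 were lower (median 0.33), against 56.2% of all measured genes. In these comparisons 33 and 34 of 36 members were lower. In CKO 4OHT against CKO EtOH, 5 of 9 markers were lower (55.6%, against 48.6% of all measured genes) and 4 higher (median -0.08). Krt1, a suprabasal keratin, had 21.8 and 205 on these arrays. In CKO 4OHT against control 4OHT, 7 of 9 were lower (77.8%, against 47.8% of all measured genes), with a median of -0.50. Of the 9, 3 were at least 2-fold lower (33.3%, against 2.24% of all). In that comparison 28 of 36 members were lower too, so the opposite signs of the solvent and control comparisons did not hold there. The summed intensity of these markers was 4707 in CKO 4OHT, 3624 in CKO EtOH, 5295 in control 4OHT and 2795 in control EtOH. The brightest marker, Sprr1b of the cornified envelope, made up much of that sum, with 2553 in CKO 4OHT, 1609 in CKO EtOH, 2441 in control 4OHT and 1319 in control EtOH, so the sum and the median differ in sign between CKO 4OHT and CKO EtOH. Cd68, on the leukocyte list, had 98.2 in CKO 4OHT, 171 in CKO EtOH, 198 in control 4OHT and 178 in control EtOH, and Ptprc, the marker of all leukocytes, was under 5 on the 4 arrays. The part of differentiation in the levels of the mitosis genes was not tested.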

How the data were processed

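RNA of 4 cultures was hybridised to 1 array each. Per the submitters' processing notes, the authors used RMA. The deposited intensity values, 1 per probe set and array for 22626 probe sets, are on a linear scale from 2.66 to 7167, and those notes give no version of RMA. No detection calls are used here, and RMA would hide a shift of most transcripts in 1 culture. From 50 to 84 probe sets had identical values in a pair of arrays, so no array was a copy. Log2 was taken of the deposited intensities with no further normalization. The platform annotation gave 1 gene for 20380 probe sets, several for 691 and none for 1555, and 12393 genes were represented by their probe set with the highest mean log2 value. Counts used at least 2-fold and at least 1.5-fold, beside the same count over 7461 measured genes. With 1 array per group no test was run. Counting steps were tested on simulated data.

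The members, the lists, the fold thresholds and the alternatives were chosen with earlier results of these data known. The rule for named genes took members by size of difference and level. Of the other lists it took genes past 2-fold and those with the highest mean, and from these the text gives the ones on which a result turns. Promoters came from RefSeq tables. Python 3.11.15, numpy 2.4.6, pandas 2.3.3 and matplotlib 3.10.9 were used. Alternatives were other probe sets, level filters, normalizations, a pseudocount and the 1.5-fold threshold.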

Additional observations from a re-analysis of the deposited data

Results flagged for a closer look

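With 1 array per group, a gene whose drug effect had opposite signs in CKO and control cells was set aside for a second look, and none of these differences was tested. Opposite signs were found for 7 of 36 members, 19.4%, against 48.7% of all measured genes. The log2 drug effect in CKO cells minus that in control cells was -0.57 for Cdc25c, -0.75 for Bub1b, -0.48 for Kif22, 0.62 for Spc25, 0.39 for Kif23, 0.35 for Bub3 and 0.16 for Ube2c. For Bub1b, Bub3, Kif22, Kif23 and Ube2c, the effect in 1 of the genotypes was within 0.1 of 0. By its other measured probe sets, Kif22 was lower with 4OHT in both genotypes.

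Of 20 other named genes, 16 had opposite signs, against 48.7% of all measured genes. Genes were named partly by size of difference, so these shares are not comparable. The log2 drug effect in CKO cells minus that in control cells was -2.74 for Prdm1, -4.09 for Krt1, -1.42 for Cdkn2d, -0.46 for Foxm1, -0.40 for Mybl2, -0.96 for Cd68 and -0.0579 for Krt14. It was 2.12 for Tk1, 1.32 for Hells, 1.31 for Pola1, 0.92 for Mcm7, 0.56 for Pcna, 1.97 for Ccnd1, 0.79 for Cdkn1a, 0.47 for Ran and 0.45 for Tubb5. For Foxm1, Mybl2, Cdkn2d, Hells and Pola1, the effect in 1 of the genotypes was within 0.1 of 0. For Krt14 both effects were.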

How the results depend on the processing

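The median of the members kept its sign in each of the 5 comparisons under the 7 alternatives that bear on it, between -0.39 and -0.30 for CKO 4OHT against CKO EtOH, -0.37 and -0.28 for CKO 4OHT against control 4OHT, -0.30 and -0.16 for control 4OHT against control EtOH, -0.19 and -0.11 for CKO EtOH against control EtOH, and -0.22 and -0.10 for the CKO drug effect minus the control one. It moved by more than 0.1 in control 4OHT against control EtOH alone, to -0.16 with the mean of all probe sets of a gene. The cause was not tested. At the 1.5-fold threshold the counts of members were 9, 7, 3 and 4 in CKO 4OHT against CKO EtOH, CKO 4OHT against control 4OHT, control 4OHT against control EtOH and, last, the CKO drug effect minus the control one. With a pseudocount of 16, which shrinks folds, 0 members were past 2-fold in CKO 4OHT against CKO EtOH. The other 35 of 40 alternative counts equalled the main count. That count was 0 or 1 in each comparison, so this agreement says little on robustness. No paired analysis was possible because each group had 1 array. Dim members near the filter, such as Kif11, Cdc25c and Ndc80, have the least certain differences.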
